A study of Mus musculus with 49 samples.

Results

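The genes described here build and operate the gate between nucleus and cytoplasm: subunits of the nuclear pore complex, the transport receptors that carry cargo through it, and the Ran system that gives transport its direction. Members were the gene symbols made of Nup, Kpna, Ipo, Tnpo or Xpo followed by a number (Xpo also by a letter), together with Kpnb1, Ran, Rangap1, Ranbp1, Ranbp2, Tpr and Ndc1, if at least 10 counts were found in 10 or more mice. Of 48 matching symbols among the 45252 genes of the count table, 47 reached this minimum. The 48th, Kpna7, an importin alpha gene known from oocytes and early embryos, did not, with at least 10 counts in 4 mice. The lowest count of any member in any mouse was 13, found for Nup37, so every member was detected in every mouse. Counting error was large for Nup37, at 18.4% of its mean in ctrl-PBS.

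Neocortical RNA of 49 mice was sequenced, 1 library per mouse. All mice were of mixed C57BL/6J x C3H/HeJ descent. Bigenic rNLS8 mice carried tetO-hTDP-43ΔNLS, a human TDP-43 transgene with its nuclear localization signal deleted, and NEFH-tTA, a transactivator driven by the promoter of the neurofilament heavy chain gene, so the transgene was directed to neurons and not to glia. Controls were monogenic and did not express hTDP-43ΔNLS, and which single transgene they carried is not given in the sources used here. Doxycycline, which keeps the transgene off, was removed at 25.5 weeks of age in all groups, and tissue was taken at 28.5 weeks. The monogenic ctrl-PBS group (n = 17) and the rNLS8 group TDP-PBS (n = 10) were injected with PBS in place of peptide. The rNLS8 groups TDP-10+12 (n = 10) and TDP-15 (n = 12) received 40 µg of ovalbumin-conjugated TDP-43 peptides 10 and 12 together, or peptide 15, from 8 weeks of age, in 5 immunizations before and 1 after induction. According to the authors, the regimen also included a CpG oligonucleotide and the adjuvant Alhydrogel. In the PBS groups, PBS took the place of the peptide conjugates. The question asked was whether cortical transcripts of the transport machinery differed after induction, and whether immunization altered them.

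The nuclear pore is a ringed channel embedded in the nuclear envelope. A scaffold of Y complexes and an inner ring holds a core of phenylalanine-glycine repeat proteins, with filaments on the cytoplasmic face and a basket on the nuclear face. Importin alpha binds a classical nuclear localization signal, such as the one that human TDP-43 lacks in rNLS8 mice, and hands the cargo to importin beta. GTP-bound Ran releases imported cargo in the nucleus and loads exportins, and Rangap1 stimulates GTP hydrolysis in the cytoplasm. Disturbed nuclear transport has been described in amyotrophic lateral sclerosis, in which TDP-43 leaves the nucleus.

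Libraries held 17775738 to 21033608 counts. Tardbp, the mouse gene for TDP-43, had a median of 146.6 CPM (reads of a gene in proportion to all reads counted in that mouse, with TMM scaling) in ctrl-PBS and 119.8 CPM in TDP-PBS, a log2 fold change of −0.30 (adjusted p = 1.54e-06, SE 0.05, edgeR's quasi-likelihood test). Transgene reads may have been counted on it, since the sources used here are silent on this. 4 rNLS8 libraries had over 1000 CPM of Ttr, a choroid plexus transcript, 2 ctrl-PBS libraries had over 5 CPM of the olfactory Omp, and TDP-10+12 replicate 8 lay farthest from its group median. Counts of called members without these libraries are given beside the results. No sequencing batch was named in the labels.

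Against ctrl-PBS, 27 of the 47 members were called in TDP-PBS (adjusted p under 0.05 over all 18220 genes tested, edgeR's quasi-likelihood test), of which 17 were higher and 10 lower. Among all genes tested, 43.5% were called, 21.9% higher and 21.6% lower. The number of lower members was therefore near the background, and the number of higher members was above it. This holds for the symbols of the rule only. Of 23 transport genes outside the rule, described below, 2 were higher and 8 lower in TDP-PBS. The changes were small: the median absolute log2 fold change was 0.13 for the members and 0.19 for all genes tested, and 0 members changed by more than 0.5. The signed median log2 fold change was −0.0038 in the members and −0.0004 in all genes. Members were also more strongly expressed than the typical gene, with a median ctrl-PBS mean of 51.0 CPM against 12.4 CPM, and their median standard error was 0.05 against 0.08 on the log2 scale. In this bulk tissue, fewer cells of a type and less RNA per cell cannot be told apart.

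In TDP-10+12, 24 members were called against ctrl-PBS, 13 higher and 11 lower, when 40.8% of all genes were called, 20.8% higher and 20% lower. In TDP-15, 25 members were called, 15 higher and 10 lower, beside 46.9% of all genes, 23.6% higher and 23.2% lower. The median log2 fold change of the members was 0.0379 in TDP-10+12 and 0.0709 in TDP-15, against 0.0031 and −0.0015 for all genes. These 3 comparisons share the 17 ctrl-PBS mice and are not independent of each other. Without the 4 libraries high in Ttr, without the 2 high in Omp, or without TDP-10+12 replicate 8, the counts stayed within 27 to 28 in TDP-PBS, 20 to 23 in TDP-10+12 and 25 to 27 in TDP-15.

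**Figure D1:**
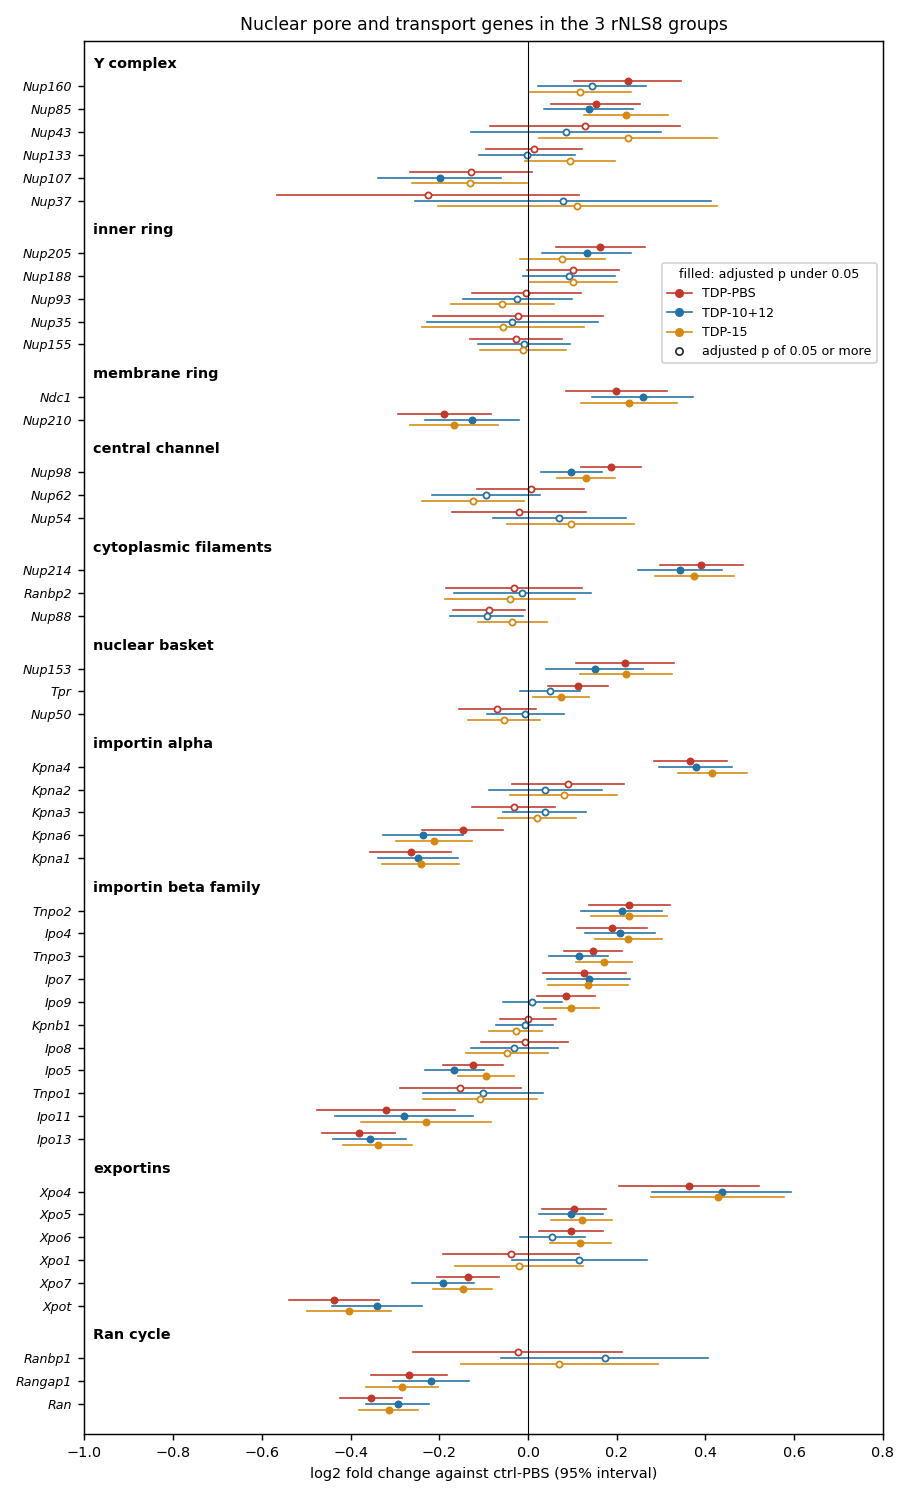
Log2 fold changes of the 47 members against ctrl-PBS (x axis) with 95% intervals, ordered by role, for TDP-PBS (n = 10), TDP-10+12 (n = 10) and TDP-15 (n = 12) against 17 ctrl-PBS mice; filled points passed the adjusted threshold. In TDP-PBS the values ran from −0.44 for Xpot to 0.39 for Nup214, and most role groups held members on both sides of 0.

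Promoter sequences are shown for the 3 members with the largest falls and for Nup214 and Kpna4, 2 of the 3 with the largest rises in TDP-PBS (the other was Xpo4), so that their bases can be read beside the expression values. They were taken from RefSeq (GRCm38.p6) and cover 250 bases before to 50 bases after the annotated start, 5′ to 3′ on the gene's strand. Of the 47 members, 39 were matched, with 46 promoters in all. Capitals mark matches, on either strand, to 6 motifs. The motif of SP1-type factors was spelled GGGCGG, and that of the nuclear factor Y family CCAAT. For ETS-family factors the letters searched were CCGGAAG, and for NRF1 they were GCATGCGC. The cAMP response element was searched as TGACGTCA, and the TATA box as TATAAA. No motif contains another, but neighbouring matches can overlap.
Xpot (chr10:121626283-121626582, minus strand): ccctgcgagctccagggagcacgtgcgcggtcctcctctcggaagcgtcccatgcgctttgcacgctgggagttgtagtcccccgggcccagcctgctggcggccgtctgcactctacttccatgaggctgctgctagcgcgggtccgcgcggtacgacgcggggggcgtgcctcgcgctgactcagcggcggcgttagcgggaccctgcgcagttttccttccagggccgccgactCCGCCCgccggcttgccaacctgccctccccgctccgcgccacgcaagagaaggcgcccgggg
Ipo13 (chr4:117914950-117915249, minus strand): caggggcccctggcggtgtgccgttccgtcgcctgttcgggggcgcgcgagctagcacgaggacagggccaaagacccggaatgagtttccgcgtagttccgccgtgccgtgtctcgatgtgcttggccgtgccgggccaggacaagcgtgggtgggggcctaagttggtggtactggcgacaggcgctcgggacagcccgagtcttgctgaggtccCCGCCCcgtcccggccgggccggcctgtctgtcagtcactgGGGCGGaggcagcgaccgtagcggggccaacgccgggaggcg
Ran (chr5:129019906-129020205, plus strand): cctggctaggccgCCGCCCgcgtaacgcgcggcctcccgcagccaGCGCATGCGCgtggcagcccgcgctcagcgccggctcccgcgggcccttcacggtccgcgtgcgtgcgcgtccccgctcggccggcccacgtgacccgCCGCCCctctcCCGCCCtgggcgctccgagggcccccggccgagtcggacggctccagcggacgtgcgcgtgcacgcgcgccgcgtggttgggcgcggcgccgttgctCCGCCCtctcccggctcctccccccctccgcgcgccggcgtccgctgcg
Nup214 (chr2:31974200-31974499, plus strand): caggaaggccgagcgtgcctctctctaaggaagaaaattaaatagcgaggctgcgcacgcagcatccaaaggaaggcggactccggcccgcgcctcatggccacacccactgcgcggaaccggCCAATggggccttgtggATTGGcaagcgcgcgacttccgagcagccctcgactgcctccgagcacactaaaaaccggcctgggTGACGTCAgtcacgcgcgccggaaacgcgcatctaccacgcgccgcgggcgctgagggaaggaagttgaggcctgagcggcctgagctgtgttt
Kpna4 (chr3:69127043-69127342, minus strand): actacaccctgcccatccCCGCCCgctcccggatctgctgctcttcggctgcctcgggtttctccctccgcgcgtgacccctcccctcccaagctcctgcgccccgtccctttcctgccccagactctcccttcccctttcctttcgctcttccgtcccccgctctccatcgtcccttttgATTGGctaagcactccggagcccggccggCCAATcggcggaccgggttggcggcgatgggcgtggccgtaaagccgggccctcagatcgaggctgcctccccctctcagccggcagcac
The promoters of Xpot, Ipo13 and Ran hold the SP1-type motif and no CCAAT box. Those of Nup214 and Kpna4 hold CCAAT boxes on both strands, Kpna4 also holds 1 SP1-type match, Nup214 also holds a cAMP response element, and Ran holds overlapping NRF1-type matches. Among the 46 member promoters, 67.4% held the SP1-type motif, against 35.7% of all 32851 promoters of this length. The shares were 50% and 37.4% for the CCAAT box, 15.2% and 8.86% for the ETS-type motif, 13% and 2.71% for that of NRF1, 4.35% and 1.79% for the cAMP response element, and 10.9% and 13.6% for the TATA box. Members had to reach a minimum of counts, whereas the background of all promoters was not selected by expression. The shares were therefore not matched for level. A match of letters describes the sequence and does not show binding. The promoters shown were picked by size of change, and motif shares were not compared between higher and lower members.

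Ran and Rangap1 fell in all 3 comparisons. Ran (chr5:129020069-129024323, GRCm38), the GTPase itself, had 76.3, 83.5 and 91.2 CPM as the lowest, median and highest of the ctrl-PBS mice. The TDP-PBS mice had 60.4, 64.8 and 72.1 CPM. The TDP-10+12 mice had 60.6, 67.8 and 72.8 CPM, and the TDP-15 mice 63.1, 65.8 and 74.8 CPM. All 32 rNLS8 values were under the lowest control. The log2 fold change was −0.35 (SE 0.04, adjusted p = 4.84e-12) in TDP-PBS, −0.29 in TDP-10+12 and −0.31 in TDP-15 (edgeR's quasi-likelihood test). In TDP-PBS this was the smallest adjusted p of any member.

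Rangap1 (chr15:81704248-81745530), the GTPase-activating partner of Ran, had 121, 135 and 152 CPM in ctrl-PBS and 101, 112 and 121 CPM in TDP-PBS as lowest, median and highest. The ranges touched, with 9 of 10 TDP-PBS mice under the lowest control. The log2 fold change was −0.27 (SE 0.04, adjusted p = 8.23e-07) in TDP-PBS, −0.22 in TDP-10+12 and −0.28 in TDP-15. Ranbp1, which aids Rangap1 in releasing Ran from receptors, was not called. It ranged from 53.4 to 112 CPM in ctrl-PBS and from 54.9 to 133 CPM in TDP-PBS, with medians of 96.8 and 101 CPM. Of the TDP-PBS mice, 2 exceeded every control and the other 8 lay within the control range. The 95% interval of its log2 fold change in TDP-PBS was −0.26 to 0.21. In the GENCODE annotation, 16.9% of the exonic bases of Ranbp1 are shared with Gm49776 on the same strand, so its counts are uncertain.

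**Figure D2:**
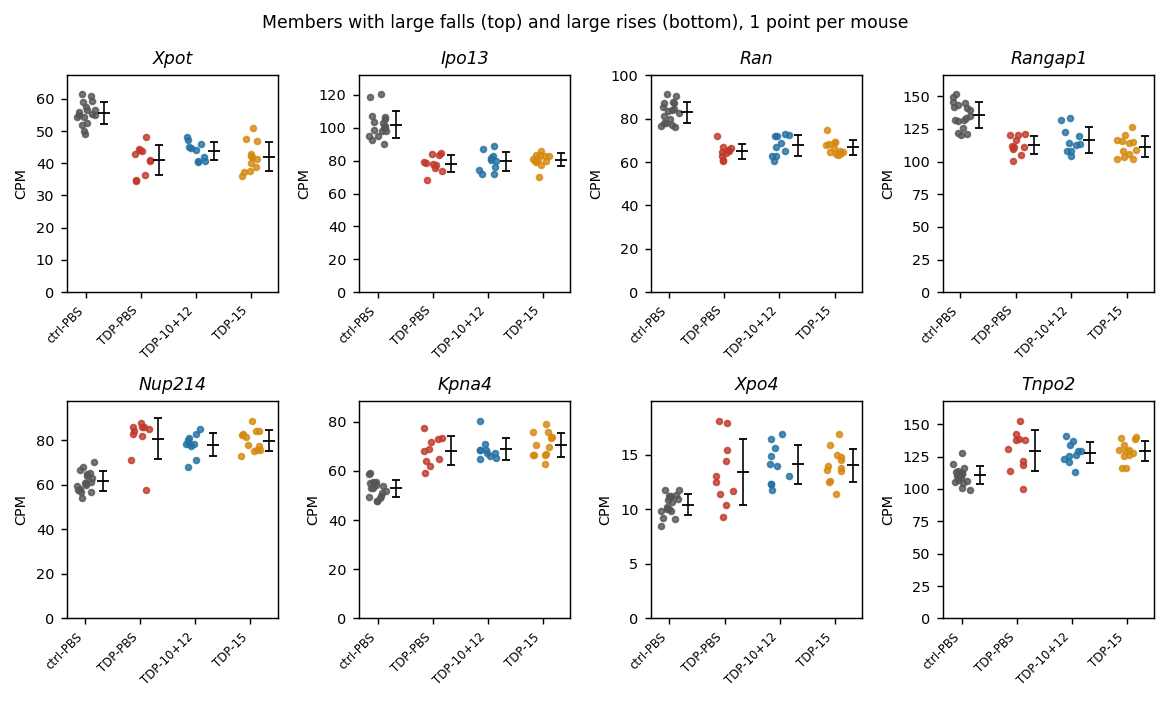
CPM (y axis, from 0) of 4 members with large falls (Xpot, Ipo13, Ran, Rangap1) and 4 with large rises (Nup214, Kpna4, Xpo4, Tnpo2) in each of the 49 mice, by group (x axis), with bars for the mean ± SD. For Ran and Ipo13 every rNLS8 point lies below every ctrl-PBS point, and for Kpna4 every rNLS8 point lies above.

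Among the importin alpha genes, which recognise classical import signals, members moved in opposite directions. Kpna4 (importin alpha 3; chr3:69067149-69127113) rose: the lowest, median and highest values were 47.9, 53.2 and 59.0 CPM in ctrl-PBS and 59.1, 68.5 and 77.6 CPM in TDP-PBS. The TDP-10+12 mice had 65.0, 68.0 and 80.5 CPM and the TDP-15 mice 62.9, 70.0 and 78.9 CPM. No rNLS8 mouse overlapped the controls, although the lowest TDP-PBS mouse and the highest control were almost level. The log2 fold change was 0.37 (SE 0.04, adjusted p = 1.64e-10) in TDP-PBS, 0.38 in TDP-10+12 and 0.42 in TDP-15 (adjusted p = 6.33e-13, edgeR's quasi-likelihood test).

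Kpna1 (importin alpha 5; chr16:35978750-36037131) and Kpna6 (importin alpha 7; chr4:129643980-129672767), a pair of closely related family members, fell. Kpna1 had 84.1, 101 and 110 CPM in ctrl-PBS as lowest, median and highest, and 75.3, 81.9 and 93.2 CPM in TDP-PBS. The groups overlapped in part, with 6 of 10 TDP-PBS mice below every control. Its log2 fold change was −0.26 (SE 0.05, adjusted p = 3.47e-06) in TDP-PBS, −0.25 in TDP-10+12 and −0.24 in TDP-15. Kpna6 had medians of 149.1 CPM in ctrl-PBS and 132.7 CPM in TDP-PBS, with ranges of 127 to 174 CPM and 121 to 152 CPM, and most mice of the groups overlapped. Its log2 fold change was −0.15 (adjusted p = 0.00639) in TDP-PBS, −0.24 in TDP-10+12 and −0.21 in TDP-15.

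Kpna2 (importin alpha 1) and Kpna3 (importin alpha 4) were not called. Kpna2 had a median of 16.4 CPM in ctrl-PBS and 17.8 CPM in TDP-PBS, with overlapping groups and a 95% interval of −0.04 to 0.22 for the log2 fold change. A pseudogene of Kpna2 is listed in the count table, so reads may have been split between them. Kpna3 lay between 58.5 and 80.5 CPM in ctrl-PBS (median 69.5) and between 61.5 and 82.0 CPM in TDP-PBS (median 67.0), with an interval of −0.13 to 0.06. Importin beta 1 (Kpnb1), the receptor that carries importin alpha and its cargo, had medians of 142.1 CPM in both groups. Its ranges were 132.0 to 151.9 CPM and 132.1 to 148.6 CPM. Its interval of −0.06 to 0.06 was among the narrowest of the members.

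**Figure D3:**
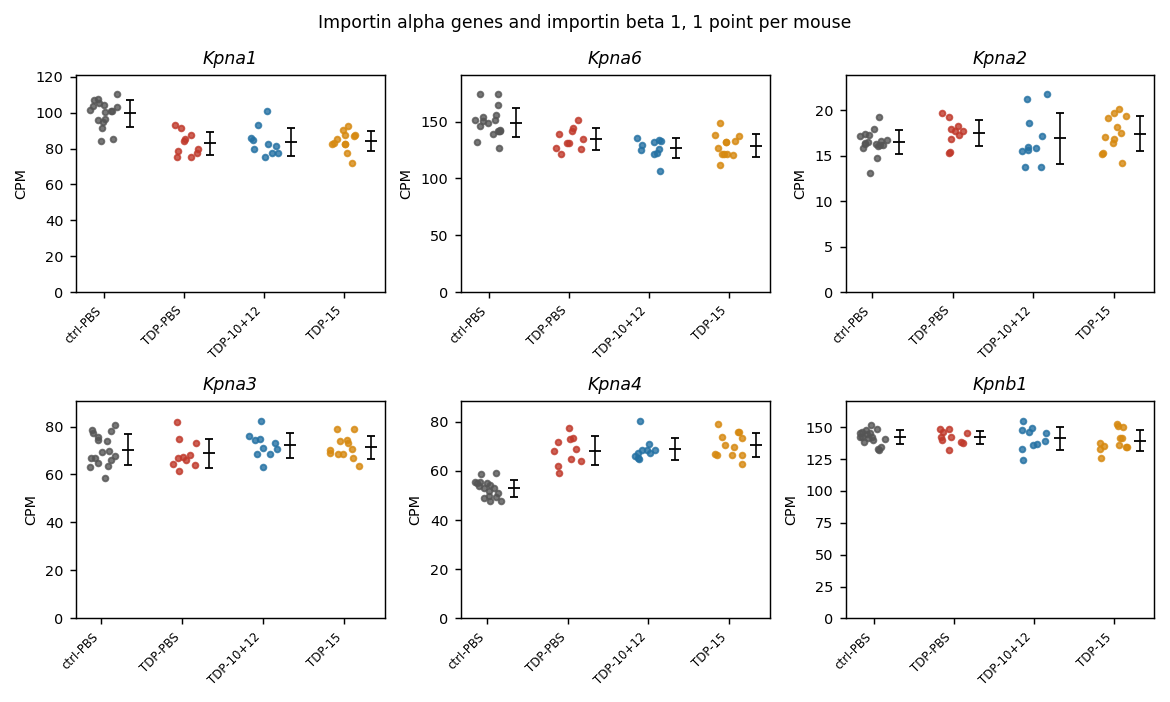
CPM (y axis, from 0) of the importin alpha genes Kpna1, Kpna6, Kpna2, Kpna3 and Kpna4 and of importin beta 1 (Kpnb1) in each mouse by group (x axis), with bars for the mean ± SD. Kpna1 and Kpna6 sat lower and Kpna4 higher in the rNLS8 groups, while the Kpnb1 groups overlapped, with values of 124 to 155 CPM over all mice.

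Of the 11 importin beta family importers, 5 were called higher and 3 lower in TDP-PBS, 4 and 3 in TDP-10+12, and 5 and 3 in TDP-15. Of all genes tested, 43.5%, 40.8% and 46.9% were called in these comparisons. Ipo13 (chr4:117894486-117914999), a bidirectional receptor that imports several developmental transcription factors and exports a translation factor, showed the largest fall in this class. Its lowest, median and highest values were 89.9, 99.7 and 120 CPM in ctrl-PBS and 68.0, 78.3 and 84.5 CPM in TDP-PBS. They were 71.7, 80.2 and 88.8 CPM in TDP-10+12 and 69.9, 81.2 and 86.1 CPM in TDP-15. Every rNLS8 mouse lay below every control. The log2 fold change was −0.38 (SE 0.04, adjusted p = 6.54e-11) in TDP-PBS, −0.36 in TDP-10+12 and −0.34 in TDP-15.

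Ipo11 had 24.9, 27.2 and 36.0 CPM in ctrl-PBS and 19.6, 22.5 and 27.7 CPM in TDP-PBS as lowest, median and highest, with 7 of 10 TDP-PBS mice below every control. Its log2 fold change was −0.32 (SE 0.08, adjusted p = 0.000605) in TDP-PBS, −0.28 in TDP-10+12 and −0.23 in TDP-15. A readthrough gene that joins Ipo11 to its neighbour is listed in the table, so its counts are uncertain. Ipo5, an importer of ribosomal proteins and histones, fell by 0.12 on the log2 scale in TDP-PBS (adjusted p = 0.00193), and most of its mice overlapped the controls.

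Transportin 2 (Tnpo2), a nuclear import receptor for RNA-binding proteins, rose. Its lowest, median and highest values were 99.3, 110 and 128 CPM in ctrl-PBS and 99.9, 134 and 153 CPM in TDP-PBS. The groups overlapped in part: 6 of 10 TDP-PBS mice exceeded every control, and the other 4, at 99.9, 114, 119 and 121 CPM, lay within the control range. The lowest of these, TDP-PBS replicate 1, was 1 of the libraries high in Ttr, and the other 3 were not. The log2 fold change was 0.23 (SE 0.05, adjusted p = 4.09e-05) in TDP-PBS, 0.21 in TDP-10+12 and 0.23 in TDP-15. An antisense RNA overlaps 10.6% of the exonic bases of Tnpo2, and the strand setting of the counting is not given in the sources used here.

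Its close relative transportin 1 (Tnpo1) was not called: it had medians of 33.0 CPM in ctrl-PBS and 29.6 CPM in TDP-PBS, in overlapping ranges of 27.2 to 44.99 CPM and 25.1 to 38.1 CPM. Its log2 fold change was −0.15 (95% interval −0.29 to −0.02, adjusted p = 0.0630). Transportin 3 (Tnpo3), the importer of serine/arginine-rich splicing factors, rose by 0.15 (SE 0.03, adjusted p = 0.000262) in TDP-PBS, 0.11 in TDP-10+12 and 0.17 in TDP-15 on the log2 scale. Its median was 51.1 CPM in ctrl-PBS (47.3 to 54.6) and 57.9 CPM in TDP-PBS (49.5 to 59.6), and 8 of 10 TDP-PBS mice exceeded the highest control.

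Ipo4, which imports histones and ribosomal proteins, had a median of 73.1 CPM in ctrl-PBS (67.2 to 81.6) and 86.1 CPM in TDP-PBS (68.7 to 95.5). 7 of 10 TDP-PBS mice exceeded every control. Its log2 fold change was 0.19 (SE 0.04, adjusted p = 9.42e-05) in TDP-PBS, 0.21 in TDP-10+12 and 0.23 in TDP-15. However, 55.3% of its exonic bases are shared with Gm49378 on the same strand, so the reads of these genes cannot be separated with certainty. Ipo7 rose by 0.13 (adjusted p = 0.0243) and Ipo9 by 0.09 (adjusted p = 0.0307) in TDP-PBS on the log2 scale, both with overlapping groups. Ipo8 was not called, with an interval of −0.10 to 0.09.

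Of the 6 exportins, 3 were called higher and 2 lower in TDP-PBS, 2 and 2 in TDP-10+12, and 3 and 2 in TDP-15, beside 43.5%, 40.8% and 46.9% of all genes called. Exportin-t (Xpot; chr10:121587380-121626332), which carries tRNA to the cytoplasm, had the largest fall of all members. Its lowest, median and highest values were 49.01, 55.4 and 61.4 CPM in ctrl-PBS and 34.4, 41.9 and 48.1 CPM in TDP-PBS. They were 40.5, 44.4 and 48.2 CPM in TDP-10+12 and 36.2, 41.7 and 51.0 CPM in TDP-15. 31 of the 32 rNLS8 mice were below every control, with TDP-15 replicate 4 as the exception. On the log2 scale the fold change was −0.44 (SE 0.05, adjusted p = 3.72e-10) in TDP-PBS, −0.34 in TDP-10+12 and −0.40 in TDP-15.

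Exportin 4 (Xpo4; chr14:57577521-57665430), an exporter of eIF5A and Smad3, rose from a low level. It had 8.45, 10.6 and 11.8 CPM in ctrl-PBS and 9.33, 12.8 and 18.1 CPM in TDP-PBS as lowest, median and highest. The TDP-10+12 mice had 11.8, 14.03 and 16.9 CPM. The spread was wide in TDP-PBS, where 6 of 10 mice exceeded every control, while in TDP-10+12 all 10 did. Against the controls its log2 fold change was 0.36 (SE 0.08, adjusted p = 0.000144) in TDP-PBS, 0.44 in TDP-10+12 and 0.43 in TDP-15.

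Exportin 1 (Xpo1, or CRM1), the receptor for leucine-rich export signals, was not called. It had medians of 39.2 CPM in ctrl-PBS (29.8 to 47.4) and 37.1 CPM in TDP-PBS (31.9 to 50.1), and a 95% interval of −0.19 to 0.11 for the log2 fold change. Exportin 5 (Xpo5), which exports microRNA precursors, rose by 0.10 (adjusted p = 0.0167) in TDP-PBS, 0.10 in TDP-10+12 and 0.12 in TDP-15, although without a filter on low counts it was not called in TDP-10+12 (adjusted p = 0.0575). Exportin 6 (Xpo6), which removes actin from the nucleus, rose by 0.10 in TDP-PBS (adjusted p = 0.0263) and 0.12 in TDP-15. Exportin 7 (Xpo7) fell by 0.14 (adjusted p = 0.00129) in TDP-PBS, by 0.19 in TDP-10+12 and by 0.15 in TDP-15, with 5 of 10 TDP-PBS mice below every control.

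Among the pore subunits, the cytoplasmic filament gene Nup214 (chr2:31974436-32053975), a docking site for Xpo1 and for the mRNA export helicase, showed the largest rise of all members. Its lowest, median and highest values were 53.9, 60.6 and 70.2 CPM in ctrl-PBS and 57.4, 84.5 and 87.7 CPM in TDP-PBS. They were 68.1, 78.2 and 85.2 CPM in TDP-10+12 and 72.8, 79.7 and 88.7 CPM in TDP-15. 30 of 32 rNLS8 mice exceeded every control. The 2 exceptions, TDP-PBS replicate 1 and TDP-10+12 replicate 2, were both among the libraries high in Ttr. The remaining libraries high in Ttr, TDP-10+12 replicate 4 and TDP-15 replicate 6, had 77.5 CPM each and exceeded every control. The part of choroid plexus tissue in these values was not tested. In TDP-PBS it was higher by 0.39 on the log2 scale (SE 0.05, adjusted p = 1.01e-09), with 0.34 in TDP-10+12 and 0.37 in TDP-15.

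Nup88, the filament subunit that binds Nup214, was not called, with a log2 fold change of −0.09 (95% interval −0.17 to −0.01, adjusted p = 0.0757) in TDP-PBS. Ranbp2, the large filament protein that holds SUMO-modified Rangap1 at the pore, had medians of 69.5 CPM in ctrl-PBS (48.2 to 91.4) and 68.2 CPM in TDP-PBS (56.8 to 89.8). Its groups overlapped throughout, and its interval was −0.19 to 0.12. A pseudogene of Ranbp2 is listed in the table, so its counts are uncertain.

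In the nuclear basket, Nup153 had 34.1, 41.0 and 49.6 CPM in ctrl-PBS and 41.9, 47.4 and 56.7 CPM in TDP-PBS as lowest, median and highest, in overlapping groups. Its log2 fold change was 0.22 (SE 0.05, adjusted p = 0.000872) in TDP-PBS, 0.15 in TDP-10+12 and 0.22 in TDP-15. Without TDP-10+12 replicate 8, its adjusted p in TDP-10+12 was 0.0752, and the calls of Ipo7 (0.0581) and Nup107 (0.0617) in that group were lost too. Tpr, the basket's long coiled-coil filament, had medians of 89.6 CPM in ctrl-PBS (76.7 to 98.7) and 98.2 CPM in TDP-PBS (88.9 to 107.4). It rose by 0.11 (adjusted p = 0.00519) in TDP-PBS and by 0.07 (adjusted p = 0.0483) in TDP-15, whereas the value in TDP-10+12 was 0.05. The call in TDP-15 was lost in 5 of 12 alternative analyses, in which adjusted p ranged from 0.0257 to 0.113. Nup50, a basket partner of importin alpha, was not called, with an interval of −0.16 to 0.02 in TDP-PBS.

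Nup98, a channel protein that also acts on transcription inside the nucleus, rose by 0.19 (SE 0.03, adjusted p = 1.04e-05) in TDP-PBS, 0.10 in TDP-10+12 and 0.13 in TDP-15 on the log2 scale. It had 36.1, 40.7 and 45.6 CPM in ctrl-PBS and 42.6, 45.6 and 48.7 CPM in TDP-PBS as lowest, median and highest, and 5 of 10 TDP-PBS mice exceeded every control. Nup62, the central channel protein, was not called. Its medians were 31.9 CPM in ctrl-PBS (27.2 to 35.6) and 30.9 CPM in TDP-PBS (24.7 to 42.2), and its interval was −0.12 to 0.13. Its partner Nup54 was not called either, with an interval of −0.17 to 0.13.

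Both membrane ring members were called, in opposite directions. Ndc1, which anchors the pore in the envelope, had medians of 15.1 CPM in ctrl-PBS (12.7 to 17.99) and 17.1 CPM in TDP-PBS (12.8 to 19.2), and rose by 0.20 (SE 0.06, adjusted p = 0.00351) in TDP-PBS, 0.26 in TDP-10+12 and 0.23 in TDP-15. Nup210, a membrane glycoprotein of the pore, had medians of 34.6 CPM (27.6 to 41.1) and 30.5 CPM (24.7 to 34.2). It fell by 0.19 (adjusted p = 0.00271) in TDP-PBS, by 0.13 in TDP-10+12 and by 0.17 in TDP-15. For both genes most mice of the groups overlapped, and the call of Nup210 in TDP-10+12 (adjusted p = 0.0479) was lost in 11 of 12 alternative analyses, in which adjusted p ranged from 0.0229 to 0.144.

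In the scaffold, 3 of 11 members were called in TDP-PBS, beside 43.5% of all genes. Of the 6 Y complex members, Nup160 (0.22, SE 0.06, adjusted p = 0.00183) and Nup85 (0.15, adjusted p = 0.0105) rose in TDP-PBS on the log2 scale. Nup160 had medians of 11.7 CPM in ctrl-PBS (10.3 to 12.8) and 13.2 CPM in TDP-PBS (11.6 to 16.4), with 7 of 10 mice above every control. In the other rNLS8 groups Nup160 was not called, with 0.14 in TDP-10+12 (adjusted p = 0.0502) and 0.12 in TDP-15. Nup107, Nup133, Nup43 and Nup37 were not called in TDP-PBS. Of the 5 inner ring members, Nup205 rose by 0.16 (adjusted p = 0.0061), and Nup93, Nup155, Nup188 and Nup35 were not called. The values of these 4 lay between −0.03 and 0.10.

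Of the 47 members, 4 had no overlap between TDP-PBS and ctrl-PBS mice (Ipo13, Kpna4, Ran and Xpot), beside 4.9% of all genes tested. In TDP-10+12 the 5 members without overlap were these 4 and Xpo4, beside 4.82% of all genes. In TDP-15 the 4 members were Ipo13, Kpna4, Nup214 and Ran, beside 5.54% of all genes.

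Immunization was compared with PBS within the rNLS8 genotype. Against TDP-PBS, 0 members were called in TDP-10+12 and 0 in TDP-15, and 0 members were called between TDP-10+12 and TDP-15, as were 0% of all genes tested in each (edgeR's quasi-likelihood test). DESeq2 and limma-voom also called 0 members. At an unadjusted p under 0.05, 2, 0 and 1 members were found in the 3 comparisons, beside 5.23%, 3.03% and 6.83% of all genes. In TDP-10+12 against TDP-PBS, the smallest p-values belonged to Nup98 (log2 fold change −0.09, adjusted p = 0.926), Ipo9 (−0.08, adjusted p = 0.947) and Xpo1 (0.15, adjusted p = 0.953). In TDP-15 against TDP-PBS they belonged to Nup62 (−0.13), Nup37 (0.34) and Nup160 (−0.11), each with an adjusted p of 0.9996. In TDP-10+12 against TDP-15 they belonged to Ipo9 (−0.09, adjusted p = 0.614), Ipo5 (−0.07, adjusted p = 0.739) and Nup133 (−0.10, adjusted p = 0.813).

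The precision of these comparisons differed between members. The 95% interval lay within 0.25 on the log2 scale on both sides of 0 for 41 members in TDP-10+12 against TDP-PBS, for 41 in TDP-15 against TDP-PBS and for 43 in TDP-10+12 against TDP-15. Nup37, the least abundant member, had the widest intervals, reaching 0.70 in TDP-15 against TDP-PBS. For Ran, the differences were 0.06 (95% interval −0.02 to 0.14) in TDP-10+12 and 0.04 (−0.03 to 0.12) in TDP-15 relative to TDP-PBS. For Xpot they were 0.10 (−0.02 to 0.21) and 0.03 (−0.07 to 0.14). For Nup214 they were −0.05 (−0.15 to 0.06) and −0.02 (−0.12 to 0.09). The intervals are not limits of detection. A call also required an adjusted p under 0.05 over all genes tested, so small differences could go uncalled with these group sizes.

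The effect of genotype was compared between the sexes in the 27 PBS-treated mice. Of these, ctrl-PBS held 10 females and 7 males, and TDP-PBS 4 females and 6 males. Outside this comparison, TDP-10+12 held 6 females and 4 males, and TDP-15 5 females and 7 males. The genotype by sex interaction was called for 0 of the 47 members and for 0% of the 18589 genes tested (edgeR's quasi-likelihood test). With 4 TDP-PBS females, the lack of calls does not show that the sexes agreed. At an unadjusted p under 0.05, 3 members were found, beside 6.28% of all genes. Nup50 had a log2 fold change of −0.18 in females and 0.03 in males (unadjusted p = 0.0120, adjusted p = 0.747), Ipo9 0.17 and 0.01, and Ran −0.43 and −0.29.

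Members differed widely in level. Per kilobase of principal transcript in ctrl-PBS, Ranbp1 was the highest with 85.3 CPM per kb, followed by Rangap1 (44.8), Ran (34.2), Nup88 (30.1) and Ipo13 (28.4). Ranbp1, Rangap1 and Ran thus took the 3 highest places, although the counts of Ranbp1 are uncertain, as given above. Nup37 (1.20), Xpo4 (1.20), Nup155 (1.85) and Nup160 (2.03) were the lowest. Kpna4 (14.2) ranked 18th, below Kpna6 (26.1), Kpna1 (19.8) and Kpna3 (17.3), and above Kpna2 (8.02).

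The spread between mice of the same group was small for most members. The pooled within-group SD of log2 CPM was under 0.2 for 42 of 47 members, with a median of 0.12. Nup37 (SD 0.43) had a mean of only 30.5 counts per mouse. Ranbp1 stood apart: its SD was 0.32 at a mean of 1906 counts per mouse. The lowest Ranbp1 values were 54.9, 61.9, 65.0 and 66.6 CPM in 4 of the 10 TDP-PBS mice, 54.4 and 67.9 CPM in 2 of the 12 TDP-15 mice, and 53.4 CPM in 1 of the 17 ctrl-PBS mice. The lowest TDP-10+12 mouse had 87.5 CPM. Kpnb1 (0.07), Ipo9 (0.08) and Ipo5 (0.08) varied least.

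**Figure D4:**
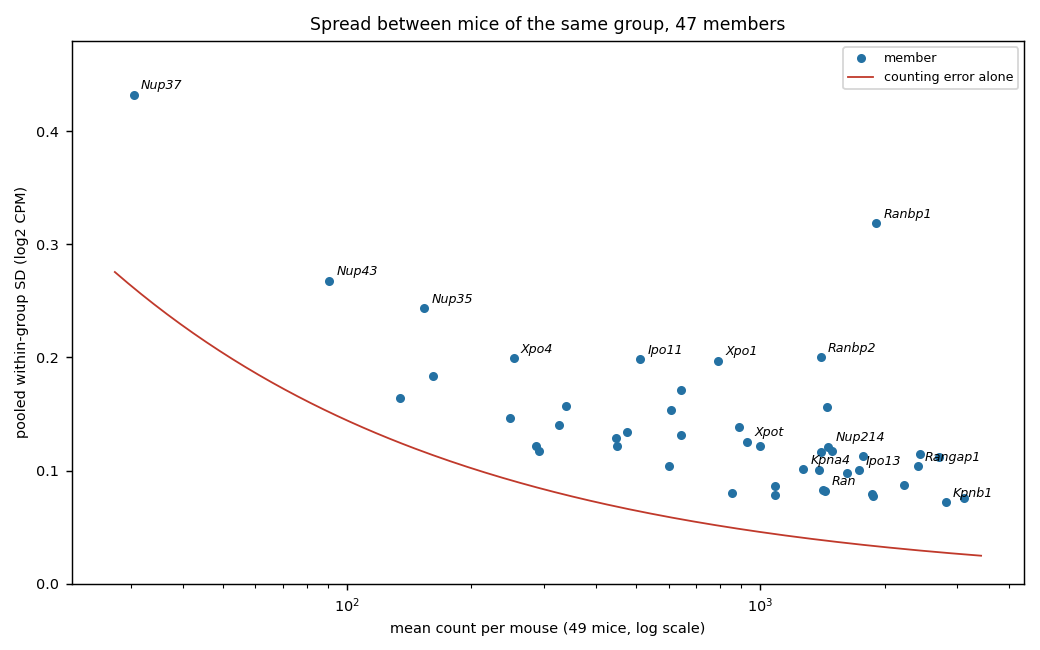
Pooled within-group SD of log2 CPM (y axis) against the mean count per mouse (x axis, log scale) of the 47 members; the line gives the SD that counting error alone would produce. Nup37 (0.43) is the least abundant member, while Ranbp1 (0.32) lies far above members of similar count.

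Genes of the same pathway whose symbols lie outside the rule were examined from a list of 23. In TDP-PBS, 2 of them were called higher and 8 lower, and in TDP-10+12 and in TDP-15 3 were called higher and 8 lower. All genes tested were called at 21.9% higher and 21.6% lower in TDP-PBS, 20.8% and 20% in TDP-10+12, and 23.6% and 23.2% in TDP-15. Rangrf, a Ran-binding factor, rose by 0.40 (adjusted p = 3.53e-05) in TDP-PBS, and Rcc1, the chromatin-bound exchange factor that loads Ran with GTP, rose by 0.28 (adjusted p = 0.00501). Rcc1 had 5.57 to 9.07 CPM (median 6.996) in ctrl-PBS and 6.08 to 10.3 CPM (median 9.04) in TDP-PBS. Ddx19b and Gle1, an mRNA export helicase and its activator at the cytoplasmic face, fell by 0.37 (adjusted p = 2.09e-06) and 0.30 (adjusted p = 2.07e-10). In Gle1, the TDP-PBS values were all under the lowest control (34.2 to 40.6 CPM against 43.5 to 51.1 CPM). Pom121, a membrane anchor of the pore, fell by 0.25 (adjusted p = 0.000593), and Akirin2, which brings proteasomes into the nucleus, also fell by 0.25 (adjusted p = 0.000179). Nupl1, a partner of Nup62 in the central channel, fell by 0.24 (adjusted p = 0.000985). Cse1l, the exportin that returns importin alpha to the cytoplasm, fell by 0.22 (adjusted p = 2.02e-06).

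Of 17 tested genes of the mRNA export machinery, 2 were higher and 4 lower in TDP-PBS, beside 43.5% of all genes called. Sarnp rose by 0.30 (adjusted p = 0.00135) and Thoc2, the scaffold of the THO complex, by 0.22 (adjusted p = 0.000271). Of the 4 lower genes, Ddx19b and Gle1 are given above, Nxf1, the main mRNA export receptor, fell by 0.18 (adjusted p = 0.0017), and Chtop fell by 0.10 (adjusted p = 0.0189). Of 16 nuclear lamina and envelope genes, 3 were higher and 2 lower, a smaller share than the 43.5% of all genes. Sun2, an inner membrane protein that ties the lamina to the cytoskeleton, had 45.6, 58.8 and 74.6 CPM in ctrl-PBS and 92.8, 109 and 128 CPM in TDP-PBS as lowest, median and highest. The groups did not overlap, and the log2 fold change was 0.92 (adjusted p = 5.09e-16), larger than that of any member. Its partner across the envelope, Syne1, fell by 0.33 (adjusted p = 2.81e-06), and Sun1 fell by 0.16 (adjusted p = 0.00248). Lmnb1, which encodes lamin B1, rose by 0.34 (adjusted p = 0.00775), and Tor1aip2 rose by 0.33 (adjusted p = 6.13e-07).

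Markers of cell types moved with the same contrast. The tissue expressed all 8 neuron markers, and their summed level was 6256 to 8027 CPM (median 6809) in ctrl-PBS and 4634 to 5750 CPM (median 5254) in TDP-PBS. Of the 8, 5 were lower, led by Nefl (log2 fold change −0.99), while the glutamatergic Slc17a7 (−0.03) and the nuclear Rbfox3 (−0.06) were not called. The highest value among the neuron markers was −0.02, for Gad2. Of 8 microglial markers 6 were higher, and their sum was 244 to 286 CPM in ctrl-PBS and 299.6 to 429.5 CPM in TDP-PBS. The lowest value among these markers was −0.09, for P2ry12. Of 6 astrocyte markers 1 was higher (Gfap, 1.64) and 2 were lower, and their sum was 2117 to 2750 CPM in ctrl-PBS and 1858 to 2629 CPM in TDP-PBS. Of the 6 oligodendrocyte, 2 precursor, 4 endothelial and 4 choroid plexus markers, 0 were called in TDP-PBS. In TDP-10+12, 3 of the 4 choroid plexus markers and both precursor markers were higher. In TDP-15, 1 choroid plexus marker was higher and 1 endothelial marker lower. In TDP-10+12 and in TDP-15, 6 microglial markers were higher and 1 lower, with P2ry12 lowest at −0.18 and −0.15. Of 4 T cell markers 0 passed the filter on low counts, and Cd3g and Cd8a had a median count of 0. The part of these markers in the values of the transport genes was not tested.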

How the data were processed

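RNA from about 30 mg of neocortex per mouse was sequenced as 100 bp paired-end reads. Alignment was to GRCm38.p6, and the authors deposited a table of unnormalized counts, with gene symbols in rows and mice in columns. The submitters' processing notes name HISAT, HISAT2, Bowtie, Bowtie2, RSEM and mm10. The counting settings, annotation and strand setting are not given in the sources used here.

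Groups and sexes came from the labels. Sex-linked transcripts matched the labelled sex in 49 of 49 mice, and no pair of libraries within a group was a copy of another (smallest chi-squared per degree of freedom 7.24). Library totals were 17775738 to 21033608. Intervals give the precision of each log2 fold change, estimated from the variation between mice, and not the range of the mice themselves.

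In edgeR 4.0.16 (R 4.3.3), filterByExpr with the groups as design and its minimum of 10 counts (total of 15) kept 18220 genes. TMM factors were 0.929 to 1.06. One quasi-likelihood model of the 4 groups, with no covariate, was fitted to all 49 mice (glmQLFit, glmQLFTest). Tests were two-sided with Benjamini-Hochberg adjustment over all genes tested, and an adjusted p under 0.05 was called. The genotype by sex interaction was fitted in the 27 PBS-treated mice. Members were never tested as a list. The fit was tested on simulated counts in which few genes changed. Changes as widespread as those called in these data were not simulated. Positions, overlaps and transcript lengths came from GENCODE for GRCm38, and promoters from RefSeq.

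The members and gene lists were chosen with earlier results of these data known. Named in full were the Ran system, importin alpha genes and other central receptors and subunits, and the 8 largest rises and 8 largest falls among members called in TDP-PBS. Between rNLS8 groups the 3 smallest p-values were named, and of the other lists the called genes with the largest changes, up to 4 in each direction. Alternatives for normalization were the size factors of DESeq2 and upper quartiles. Alternatives for the filter were none, or 10 counts or more in each of the mice. Alternatives for the model were a sex term, 2 surrogate variables (sva 3.50.0), a fit restricted to the groups being compared, DESeq2 1.42.0 in place of edgeR, and voom with sample quality weights (limma 3.58.1). Nup symbols that end in a letter were also added. Leaving out libraries high in Ttr or Omp, or the library farthest from its group median, was added after seeing the data. Figures were drawn with matplotlib 3.10.9.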

Additional observations from a re-analysis of the deposited data

Results flagged for a closer look

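In the groups of 10 mice, each member was examined for a single mouse whose gap to the nearest other mouse was a large share of the range of the group. Of 94 sets of 10 values, 7 held such a mouse, and chance flags about 1 in 20. TDP-10+12 replicate 8, the library farthest from its group median, accounted for 4. It had 102.0 CPM of Ipo7 (next mouse 82.1), 80.5 CPM of Kpna4 (next 71.1), 58.7 CPM of Nup153 (next 47.7) and 58.8 CPM of Xpo1 (next 46.0), each the highest of its group. TDP-10+12 replicate 4 had the lowest Kpna6 (106.4 CPM, next 121.5) and TDP-10+12 replicate 2 the lowest Nup133 (19.8 CPM, next 22.4). TDP-PBS replicate 1 had the lowest Nup188 (18.4 CPM, next 22.1). These last 3 libraries were among the 4 with over 1000 CPM of Ttr, and the part of that tissue in the values was not tested. With TDP-10+12 replicate 8 left out, 20 members were called in TDP-10+12 against ctrl-PBS, in place of 24.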

How the results depend on the processing

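The counts of called members, in total and in each direction, stayed within 1.5 times the values given in the report in all comparisons and under every alternative run. Against ctrl-PBS they ran from 25 to 29 in TDP-PBS, 20 to 24 in TDP-10+12 and 24 to 27 in TDP-15, and 0 members were called between rNLS8 groups under any of them. Other choices of Nup symbol added 0 calls. Of the 27 members called in TDP-PBS, 25 were called in all 12 alternative fits, as were 17 of 24 in TDP-10+12 and 24 of 25 in TDP-15. Calls were lost in at least 1 alternative for Ipo9 (adjusted p up to 0.0775) and Xpo6 (0.0635) in TDP-PBS, for Ipo7, Nup107, Nup153, Nup205, Nup210, Nup85 (up to 0.206) and Xpo5 in TDP-10+12, and for Tpr in TDP-15 (up to 0.113). Calls were gained in at least 1 alternative for Nup188, Nup88 and Tnpo1 in TDP-PBS, Nup160 and Nup88 in TDP-10+12, and Nup160, Nup43 and Nup62 in TDP-15. The sign turned in at least 1 alternative for 8 members in TDP-PBS, 7 in TDP-10+12 and 1 in TDP-15, of which 0 were called in that comparison. These included Ipo8, Nup35, Nup93 and Nup155 in TDP-PBS, Nup133, Nup155, Nup35 and Nup50 in TDP-10+12, and Nup155 in TDP-15. In TDP-PBS, Kpnb1 had a log2 fold change of −0.0041 with sex as a covariate and −0.0077 with surrogate variables, Nup62 had −0.0137 without the libraries high in Omp, and without those high in Ttr Ranbp1 had 0.0221 and Ranbp2 0.0001. In TDP-10+12, Kpna2 had −0.0041 with limma-voom, Kpnb1 had 0.0079 and Ranbp2 0.0243 without the libraries high in Ttr, and Ranbp2 had 0.0091 without those high in Omp. The cause was not tested. Mice were not paired or blocked, because litter is not given in the labels. According to the authors, littermates were divided among the immunization groups, and this relatedness was not modelled. Nup37, with a mean of 30.5 counts per mouse, is the member whose values depth limits most.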
